A study of Caenorhabditis elegans with 4 samples.

Results

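The regions described here are the MAB-5::GFP peaks of chromosome III that lie outside the segment holding the main Hox gene cluster. A peak belonged to the set when it was listed on chromosome III and its midpoint fell below 7500000 or above 7850000 in coordinates of WormBase build WS220, and an interval listed more than once was counted once. The rule used position alone and no measured value. It selected 106 of the 642 distinct nuclear peaks of the combined list (16.5%), 4658 of the 29973 distinct nuclear peaks of replicate 1 (15.5%) and 4759 of the 29973 of replicate 2 (15.9%). These regions are set here against the 522 combined peaks of chromosomes I, II, IV, V and X, and the 14 combined peaks of the Hox segment were kept apart.

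The study mapped genomic regions bound by MAB-5 in C. elegans embryos by ChIP-seq, which sequences the DNA that is crosslinked to an immunoprecipitated protein. All samples were embryos of 1 strain, OP27, which carries the unc-119(ed3) allele and the transgene wgIs27, from a mixed population of males and hermaphrodites grown at 20 °C. The ChIP group held 2 replicates precipitated with anti-GFP antibodies after crosslinking in 2% formaldehyde, and the 2 input samples of the same strain were not analysed here. In wgIs27, mab-5 is fused to TY1, EGFP and FLAG beside unc-119 as the marker, and the transgene was introduced by bombardment. No untagged control enters a comparison given here. The labels do not say whether the replicates came from separate cultures, so the tests count peaks and not cultures. The lists give no read counts, and the depth behind a peak is unknown.

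MAB-5 is a homeodomain transcription factor of the Hox family that patterns the posterior body of the worm and steers the migration of neuroblasts. Its own gene lies in the Hox cluster of chromosome III, together with lin-39, ceh-13 and egl-5, while the posterior Hox genes nob-1 and php-3 lie elsewhere on the same chromosome. Autosomes of C. elegans are known for a central part rich in conserved genes with little recombination, flanked by arms with more repeats and more recombination. Hox factors such as MAB-5 usually act at enhancers and promoters scattered over the genome, and in worm embryos many transcription factors share part of their binding regions. The lists name no genes and no annotation of build WS220 was used here, so no gene was assigned to any peak.

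The strongest regions outside the Hox segment were found on both sides of it and were strong in both replicates. The authors numbered the peaks of each list in an order close to that of their score. The 10 regions with the lowest combined numbers, called the strongest here, were at the shared top score of all 3 lists. The top score was held by 270 nuclear peaks of the combined list, 453 of replicate 1 and 261 of replicate 2. The chromosome was divided into 3 parts of equal length, called left, centre and right here, and of these 10 regions 5 lay in the left part, 1 in the centre and 4 in the right part. The first by number was combined peak 8, from 8446972 to 8447226 in the centre, with peak number 112 in replicate 1 and 12 in replicate 2. Combined peak 18, from 4568591 to 4568822 near the inner edge of the left part, had peak number 62 in replicate 1 and 25 in replicate 2. By peak number these regions therefore stood high in each replicate, but not in the same order. As they were tied in score, the numbers do not show which of them was stronger. Below the top score the number did not always follow the score. Combined peak 275 scored 2.28 and combined peak 352 scored 2.39. They were picked by combined number, and the combined list drew on both replicates. High ranks in both thus follow in part from the choice.

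Combined peak 20, from 4171070 to 4171244 in the left part, had peak number 40 in replicate 1 and 22 in replicate 2. In the right part, combined peak 32 ran from 10989329 to 10989868 (peak numbers 67 in replicate 1 and 31 in replicate 2). Combined peak 37 ran from 12612428 to 12612651 (70 in replicate 1 and 55 in replicate 2). The right part also held a region that replicate 1 placed higher than replicate 2 did. That region was combined peak 47, from 10759026 to 10759240, with peak number 32 in replicate 1 and 69 in replicate 2. The remaining 4 of the 10 strongest regions had combined numbers between 48 and 63. Combined peak 48 (1619002 to 1619243) had number 78 in replicate 1 and 62 in replicate 2, and combined peak 54 (3867425 to 3867563) had number 146 in replicate 1 and 54 in replicate 2. Combined peak 61 (4358240 to 4358779) had number 91 in replicate 1 and 80 in replicate 2, and combined peak 63 (13643334 to 13643873), the last combined peak of the chromosome, had number 60 in replicate 1 and 129 in replicate 2. The 10 strongest regions thus spanned the chromosome from 1619002 to 13643873.

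The top score was reached by 50 of the 106 regions (47.2%, 95% exact interval 37.4 to 57.1%), against 210 of 522 on the other nuclear chromosomes (40.2%), and by 42.1% of all combined nuclear peaks. The difference of 6.94 percentage points did not pass Fisher's exact test (two-sided p = 0.196, adjusted p = 0.332 over 6 tests). Width went with the score in both groups. Of the 106 regions, 94 were 540 bp wide and 12 were narrower, from 139 to 255 bp. The 12 narrow regions were all at the top score, against 38 of the 94 of usual width. On the other chromosomes 57 of 59 narrow and 153 of 463 regions of usual width were at the top score. Narrow intervals thus stood almost wholly at the top score in both groups, and among the regions of chromosome III with combined numbers up to 100, 9 of 17 were narrow.

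Along chromosome III the combined regions stood at similar densities in the 3 parts of its length. Its length was read as 13.8 Mb, the end of the last peak in either replicate list, and its 3 parts met at 4.59 and 9.19 Mb. The left part held 38 regions, or 8.27 per Mb (95% exact Poisson interval 5.85 to 11.4). The centre, without the 350 kb segment, held 35, or 8.25 per Mb (5.74 to 11.5). The right part held 33, or 7.18 per Mb (4.94 to 10.1). These intervals overlapped widely and cover counting error only, as do all intervals given here.

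The centre took 33.0% of the 106 regions (95% exact interval 24.2 to 42.8%), against 39.2% of the 408 regions on the other autosomes (34.4 to 44.1%), and 39.6% of all autosomal combined peaks lay in the centre of their chromosome. The difference of -6.20 percentage points did not pass the test (Fisher's exact test, two-sided p = 0.262, adjusted p = 0.332). Without the segment the centre made up 31.6% of the length of chromosome III, against 33.3% on the other autosomes. With peaks of the same relative stretch removed from the other autosomes, their central share was 38.2%. The difference was then -5.14 points (Fisher's exact test, adjusted p = 0.440). The other autosomes were not alike in the density of their centres. The centre was the densest on chromosomes I (10.2 per Mb), II (7.66 per Mb) and V (6.02 per Mb), and the sparsest on chromosome IV (4.80 per Mb). Chromosome V differed most from chromosome III outside the segment in its arms, with 2.87 per Mb in its left part and 3.15 per Mb in its right part.

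**Figure D1:**
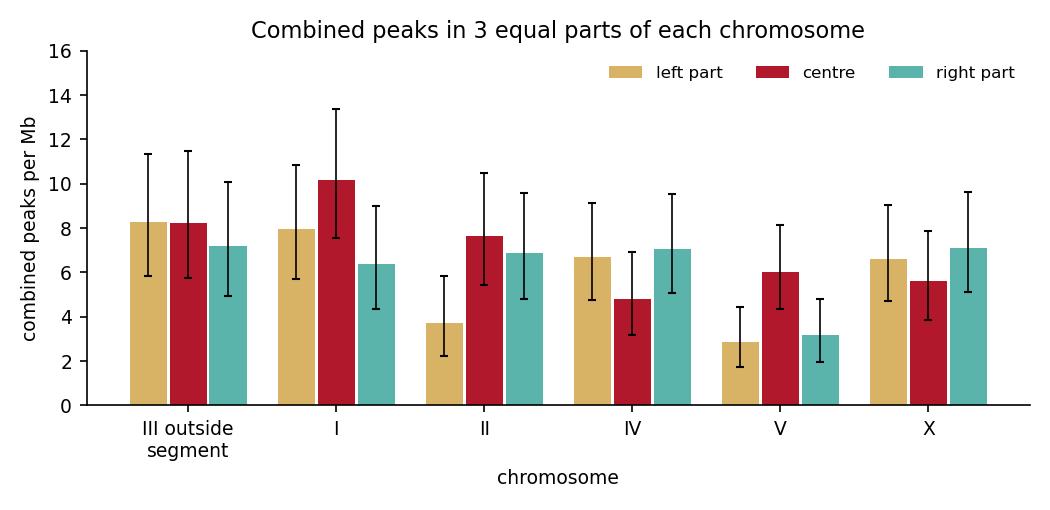
Combined peaks per Mb in the left, centre and right part of each nuclear chromosome, with chromosome III shown without the Hox segment. Bars start at 0 and error bars are 95% exact Poisson intervals; the bars of chromosome III stand at 8.27, 8.25 and 7.18 per Mb, while on chromosome V the central bar of 6.02 per Mb stands above side bars of 2.87 and 3.15 per Mb.

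The densest part of chromosome III was not the same one in both replicates. To compare lists of equal length, the 642 highest nuclear peaks of each replicate were taken, as many as the distinct combined nuclear peaks. Of these, 126 of replicate 1 and 104 of replicate 2 lay on chromosome III outside the segment. Replicate 1 held 40, 41 and 45 of them in the left part, the centre and the right part, or 8.71, 9.66 and 9.80 per Mb. Replicate 2 held 32, 43 and 29, or 6.97, 10.1 and 6.31 per Mb. The densest part was the right one in replicate 1 and the central one in replicate 2, and the intervals of the centre (6.93 to 13.1 per Mb in replicate 1 and 7.33 to 13.6 per Mb in replicate 2) overlapped those of the other parts.

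Among all candidate peaks of the replicate lists the order of the 3 parts was another. In the whole replicate 1 list the left part, the centre and the right part held 358, 311 and 369 peaks per Mb, and in the whole replicate 2 list 377, 300.4 and 382 per Mb. The centre was thus the sparsest of the 3 parts in both whole lists. It held 28.3% of the candidates of replicate 1 and 26.8% of those of replicate 2, against 33.8% and 32.6% on the other autosomes in replicates 1 and 2. These shares are of unlike lengths, since the centre without the segment was 31.6% of chromosome III, against 33.3% on the other autosomes. Whether the weak candidates mark binding was not tested.

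On a finer scale the regions were uneven. With the chromosome cut into 10 bins of equal length, from left to right, the combined list held 3, 14, 12, 20, 8, 7, 13, 13, 6 and 10 regions, bin 6 being shortened by the segment. Bin 1 was the sparsest, with 2.18 regions per Mb (0.449 to 6.36), and bin 4 the densest, with 14.5 per Mb (8.86 to 22.4). Among the 642 highest peaks of replicate 1, bin 1 was also the sparsest, at 2.18 per Mb. Bin 4 was the densest there at 13.8 per Mb, but bins 8 (13.1 per Mb) and 10 (12.3 per Mb) came close. In replicate 2 bin 1 was again the sparsest, at 2.90 per Mb, but bin 7 (13.8 per Mb) was denser than bin 4 (11.6 per Mb). These bins were singled out with their values in view, and no test was made of them.

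**Figure D2:**
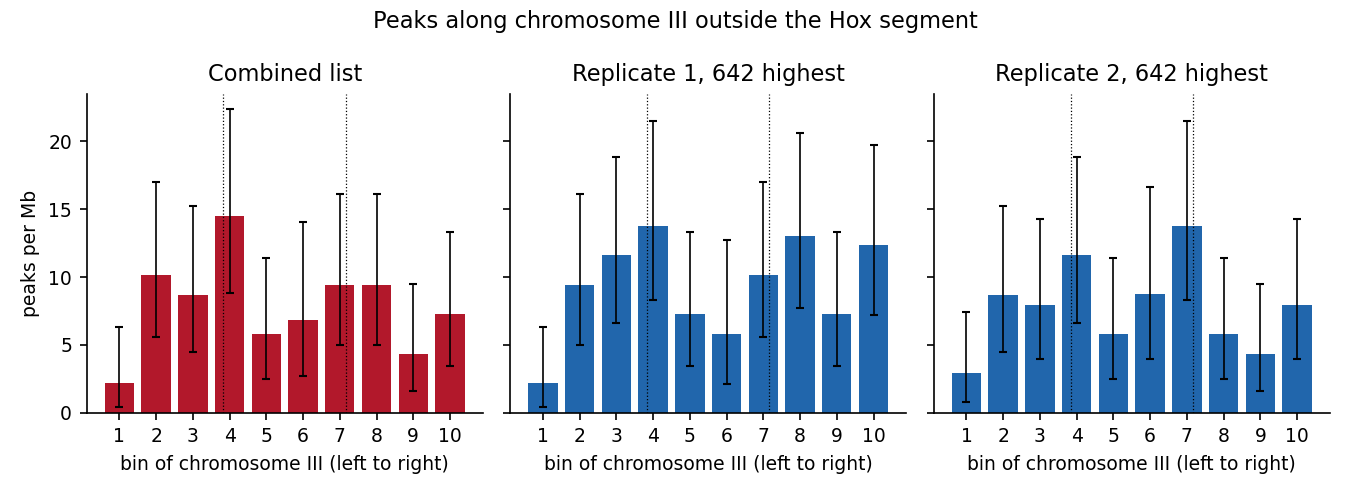
Peaks per Mb in 10 equal bins of chromosome III, left to right, without the Hox segment, for the combined list and the 642 highest nuclear peaks of replicates 1 and 2. Bars start at 0, error bars are 95% exact Poisson intervals and dotted lines mark the 3 parts; bin 1 is the lowest in each list (2.18, 2.18 and 2.90 per Mb), and bin 4 is the highest in the combined list (14.5 per Mb).

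The sparse left end was not empty of candidates. The widest stretch without a combined region ran from 624284 to 1619002, a length of 995 kb. It held 312 candidates of the whole replicate 1 list (314 per Mb) and 327 of the whole replicate 2 list (329 per Mb), against 347 and 354 per Mb over chromosome III outside the segment in replicates 1 and 2. Only 3 of the 642 highest nuclear peaks of replicate 1 and 1 of those of replicate 2 fell in it. The strongest were peak 288 of replicate 1, from 1080471 to 1080934, and peak 476 of replicate 2, from 1533013 to 1533502, which lay apart. Wider stretches without a combined peak were found on chromosomes II (1962 kb) and V (1485 kb), and narrower ones on chromosomes I (810.1 kb), IV (827 kb) and X (629.7 kb). Over the 106 regions the first began at 343613 and the last ended at 13643873.

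Per length, chromosome III outside the segment held 7.89 combined regions per Mb, against 6.04 per Mb on the other nuclear chromosomes. The ratio was 1.31 (95% exact interval 1.05 to 1.61) with an exact conditional binomial p of 0.0139, which missed the threshold of 0.05 after Benjamini-Hochberg adjustment (adjusted p = 0.0748). In the combined list chromosome I was denser still, at 8.17 per Mb, and chromosomes X (6.43), IV (6.18), II (6.09) and V (4.01 per Mb) were sparser. The interval of chromosome III outside the segment (6.46 to 9.55 per Mb) lay above that of chromosome V, whose upper bound was 4.97 per Mb, and overlapped those of the other 4. The order against chromosome I was not the same in each list. Among the 642 highest of replicate 1, chromosome III outside the segment had 9.38 peaks per Mb, against 7.77 on chromosome I, and among those of replicate 2 it had 7.74, against 8.97. In the whole lists it had 347, against 332 per Mb in replicate 1, and 354, against 338 per Mb in replicate 2. With the 642 highest nuclear peaks of replicate 1 in place of the combined list, the ratio was 1.61 (exact test, adjusted p = 2.78e-05). With those of replicate 2 it was 1.28 (exact test, adjusted p = 0.0787). With the segment counted in, the ratio was 1.44 (exact test, adjusted p = 0.00276). The candidates of the whole lists were denser on chromosome III outside the segment too, at 347 against 291 per Mb in replicate 1 and 354 against 290.1 per Mb in replicate 2. Set against candidates in place of length, a choice made after the data were seen, the ratio was 1.08 (0.871 to 1.34, exact test, adjusted p = 0.532). These exact tests take peaks as independent, although some lie close together, so their p-values may be too small. They also take no account of the spread between single chromosomes, from 4.01 to 8.17 per Mb in the combined list.

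Replicate support of the combined regions was read from the 642 highest nuclear peaks of each replicate. Of the 106 regions, 46 overlapped such a peak in both replicates and 10 in neither. Another 22 met one from replicate 1 only, and 28 from replicate 2 only. The share found in both was 43.4% (33.8 to 53.4%), against 37.7% on the other nuclear chromosomes (197 of 522, 33.6 to 42.1%) and 39.1% of all combined nuclear peaks. Fisher's exact test did not separate the groups (difference 5.66 percentage points, two-sided p = 0.277, adjusted p = 0.332). The combined list drew on these same replicates, so overlap with them is not an independent check of a region.

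Support by both replicates was concentrated among the low combined numbers. Of the regions numbered 1 to 100, 16 of 17 were found in both replicates, against 72 of 76 on the other chromosomes. Of those numbered 101 to 200, 16 of 19 were, against 61 of 77, and of those numbered 201 to 300, 8 of 16, against 38 of 83. The share then fell off in both groups. It was 2 of 14 for numbers 301 to 400, against 18 of 86, then 4 of 20 for numbers 401 to 500, against 7 of 79. Among the weakest, numbered 501 to 644, 0 of 20 were found in both, against 1 of 121. Since the combined list drew on both replicates, such a fall can follow from its numbering and is no independent result.

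The centre of chromosome III had more support from replicate 2 than from replicate 1, a pattern noticed after the values were seen and not tested. Of its 35 regions, 29 lay within the 642 highest of replicate 2 (82.9%, 66.4 to 93.4%), but 17 within those of replicate 1 (48.6%, 31.4 to 66.0%). In the left part the order was the other way, with 28 of 38 in replicate 1 (73.7%) and 22 in replicate 2 (57.9%). The right part had 23 of 33 in each (69.7%). Regions carried by replicate 2 alone numbered 7, 14 and 7 in the left part, the centre and the right part, and those carried by replicate 1 alone 13, 2 and 7. On the other autosomes replicate 2 carried more in each part, with 78.8%, 75.6% and 63.8% of regions in the left part, the centre and the right part, against 58.5%, 50.0% and 56.9% in replicate 1. By these counts the left part of chromosome III had the opposite order to the left parts of the other autosomes pooled. By peak number it was tied, with 19 regions stronger in replicate 1 and 19 in replicate 2.

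**Figure D3:**
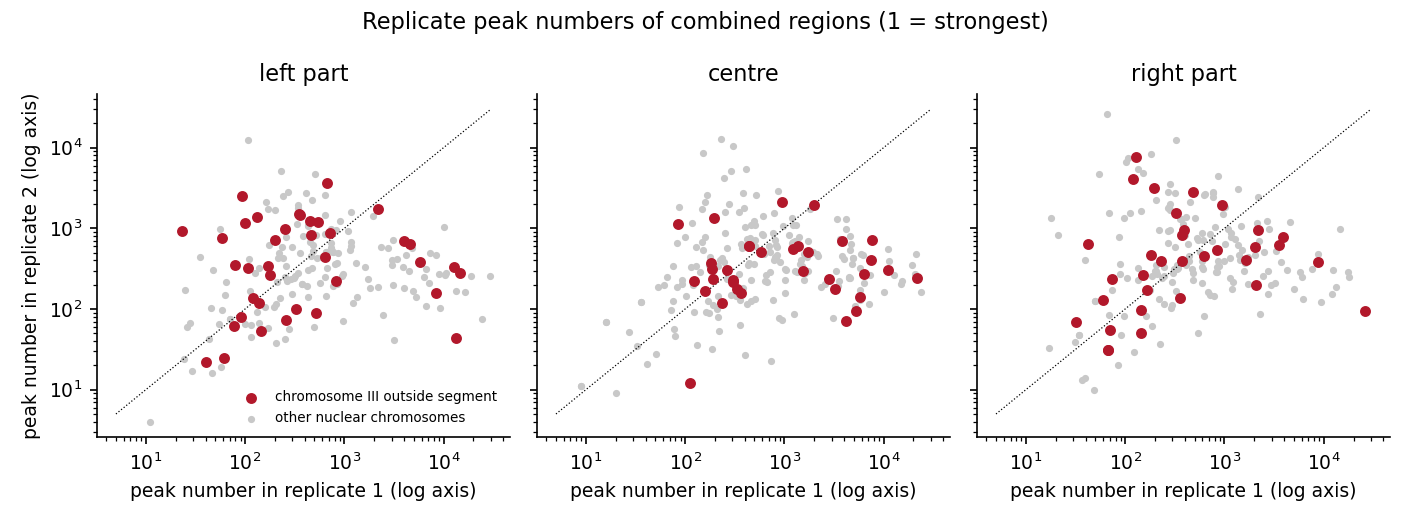
Peak number in replicate 1 (horizontal, log axis) and replicate 2 (vertical, log axis) of the partner of each combined region, for the left part, the centre and the right part; red points are chromosome III outside the Hox segment, grey points the other nuclear chromosomes including X, and a low number is a strong peak. The dotted line marks equal numbers; of the central regions of chromosome III with partners in both lists, 23 lie under the line (stronger in replicate 2) and 11 above it.

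Across the regions the partners had a median peak number of 358 in replicate 1 (quartiles 145 and 1978) and of 379.5 in replicate 2 (quartiles 160.25 and 779). On the other chromosomes the medians were 495 in replicate 1 and 347.5 in replicate 2. Among these regions the peak numbers of both replicates were only weakly related, with Spearman's rho of 0.16 over 105 regions, against 0.14 over 519 regions elsewhere. This describes regions that share the same 2 libraries. The regions were taken from the combined list, which drew on both replicates, and such a choice can lower rho. It is therefore no measure of how far the whole replicate lists correspond. Where partners existed, their positions were close, with a median distance between centres of 44 bp (quartiles 19 and 89), against 45 bp on the other chromosomes. The centres lay within 50 bp of each other for 56 of 105 regions.

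Some regions met a strong peak of one replicate and a far weaker one of the other. The most unequal in favour of replicate 2, by the partners' numbers, were combined peak 127 (3279161 to 3279700, peak 13256 of replicate 1 and 44 of replicate 2), combined peak 352 (10407121 to 10407660, peaks 26314 and 94) and combined peak 426 (5068714 to 5069253, peaks 21899 and 243). The most unequal in favour of replicate 1 were combined peak 339 (9867975 to 9868514, peak 128 of replicate 1 and 7552 of replicate 2), combined peak 126 (623745 to 624284, peaks 23 and 921) and combined peak 496 (10333743 to 10334282, peaks 119 and 4097). The replicate 1 partners of the first 3 were not centred on the replicate 2 peaks. The centres lay 242 bp apart at combined peak 127, 373 bp at 352 and 502 bp at 426, where the replicate peaks did not overlap each other. At combined peaks 339, 126 and 496 the centres lay 35, 9 and 14 bp apart. Combined peak 580, from 8658273 to 8658812, had no partner in the whole replicate 1 list and was peak 454 of replicate 2. A listed partner of a combined region could thus stand as low as peak 26314 of a replicate.

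Sharing between the replicates themselves was compared at equal list length. Of the 126 replicate 1 peaks of chromosome III outside the segment among the 642 highest, 46 overlapped one of the 642 highest of replicate 2 by at least 1 bp (36.5%, 28.1 to 45.6%). The share was 197 of 503 on the other nuclear chromosomes (39.2%, 34.9 to 43.6%), and 39.1% over all nuclear chromosomes. The difference of -2.66 percentage points did not pass the test (Fisher's exact test, two-sided p = 0.610, adjusted p = 0.610). Read from replicate 2, 45 of 104 peaks were shared (43.3%, 33.6 to 53.3%), against 199 of 525 (37.9%, 33.7 to 42.2%) and 39.4% over all nuclear chromosomes. That difference of 5.36 points had the opposite sign and did not pass either (Fisher's exact test, two-sided p = 0.323). An overlap counts from either side, so the shared numbers of 46 and 45 had to be nearly equal and are not separate results. The shares had unequal denominators, with 126 peaks placed on this stretch of the chromosome by replicate 1 and 104 by replicate 2.

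The share of replicate 1 peaks was higher among the 100 highest than among the 1000 or the 5000 highest in both groups, though the 50 highest held only 2 of 7 shared on chromosome III outside the segment, against 18 of 38. For the 100 highest nuclear peaks of each replicate, 44.4% of the replicate 1 peaks of chromosome III outside the segment were shared, against 47.4% elsewhere. For the 300 highest the shares were 42.9% on chromosome III outside the segment and 45.8% elsewhere, and for the 1000 highest 32.8% and 36.5%. Among the 5000 highest they were 27.7% on chromosome III outside the segment and 26.3% elsewhere. Read from replicate 2 the order of the groups was the other way at 300 peaks (50.9% on chromosome III outside the segment, against 44.3%) and at 400 peaks (56.7%, against 43.2%). At 1000 peaks the replicate 2 shares were 59 of 164 on chromosome III outside the segment and 300 of 822 elsewhere, and at 5000 peaks 26.0% and 27.2%. Over the whole lists, where candidates lie densely, 2102 of 4658 replicate 1 candidates met a replicate 2 candidate (45.1%, 43.7 to 46.6%), against 10078 of 25188 elsewhere. The chromosome III candidates were also the denser ones, and what part of the difference at whole length goes with that was not tested.

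**Figure D4:**
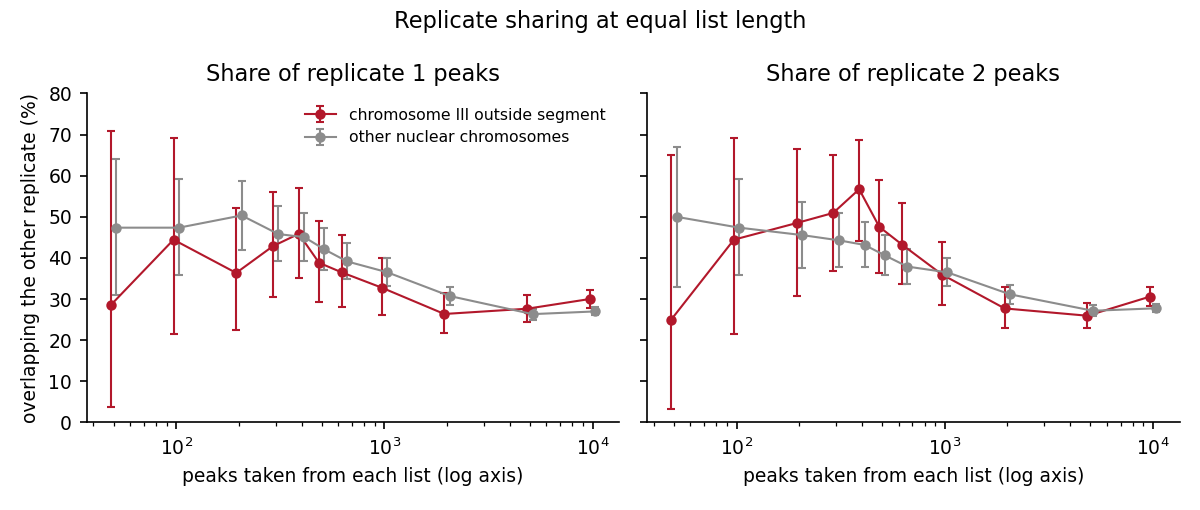
Percent of the highest nuclear peaks of replicate 1 (left) and replicate 2 (right) that overlap the same number of highest peaks of the other replicate, against that number on a log axis, for chromosome III outside the Hox segment (red) and the other nuclear chromosomes (grey). Error bars are 95% exact binomial intervals; at 642 peaks the points are 36.5% and 39.2% in replicate 1 and 43.3% and 37.9% in replicate 2, and from 1000 to 5000 peaks all points lie under 40%.

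Sharing went with score in the set and on the other chromosomes alike. At the top score of replicate 1, 42 of 94 peaks were shared (44.7%), against 170 of 348 on the other chromosomes (48.9%), and below it 4 of 32 (12.5%). At the top score of replicate 2, 31 of 45 were shared (68.9%), against 124 of 207 (59.9%), and below it 14 of 59 (23.7%). By part, from left to right, 16 of 40, 15 of 41 and 15 of 45 replicate 1 peaks were shared, as were 16 of 32, 14 of 43 and 15 of 29 replicate 2 peaks. The centre of replicate 2 thus held the lowest of the shares, 32.6% (19.1 to 48.5%), which overlapped in its interval with those of the other parts.

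Many strong replicate 1 peaks had no place in the combined list, on chromosome III outside the segment and elsewhere. Of the 94 replicate 1 peaks at the top score, 34 overlapped no combined region (10 of them without any replicate 2 partner), against 100 of 348 on the other chromosomes. In replicate 2 the count was 3 of 45, against 3 of 207. The shares that did overlap one were 63.8% against 71.3% in replicate 1 and 93.3% against 98.6% in replicate 2. The top score was held by 453 nuclear peaks of replicate 1 and 261 of replicate 2, so the replicates are not compared at equal depth here. Among the 642 highest, 20 of 126 replicate 1 peaks and 12 of 104 replicate 2 peaks had no partner anywhere in the other list, against 63 of 503 and 57 of 525 elsewhere. Some peaks shared by the 642 highest of both replicates were absent from the combined list. On chromosome III outside the segment these were 1 of 46 in replicate 1 and 1 of 45 in replicate 2. Elsewhere they were 4 of 197 in replicate 1 and 4 of 199 in replicate 2. The region on chromosome III lay from 502492 to 502955 in replicate 1 (peak 230) and from 502544 to 503033 in replicate 2 (peak 154). It stood at the top score of each replicate, in the sparse bin 1.

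Combined regions of chromosome III had nearer neighbours at the median, and more of them had one within 5 kb. The median distance to the nearest other combined region was 27.6 kb (quartiles 11.5 and 80.4 kb), against 48.7 kb on the other nuclear chromosomes (15.9 and 110.1 kb). Taken singly, these had medians of 35161 bp (I), 40216 bp (X), 45790 bp (II), 55926.5 bp (IV) and 91886 bp (V). In the replicate lists the median distance was also shorter than on the other chromosomes pooled. It was 29.0 against 55.4 kb among the 642 highest of replicate 1 and 31.9 against 42.3 kb among those of replicate 2. These medians were not tested. Chromosome III outside the segment was also denser in regions than the others pooled, and what part of the spacing goes with that was not tested. Of the 106 regions, 24 had another within 5 kb (22.6%, 15.1 to 31.8%), against 71 of 522 (13.6%, 10.8 to 16.8%) and 15.9% of all combined nuclear peaks. The difference of 9.04 percentage points had a Fisher's exact p of 0.0249 and missed the threshold after adjustment (two-sided, adjusted p = 0.0748). Close regions come in pairs, so they are not independent and these p-values are too small. Among the 642 highest of replicate 1 the difference in the share within 5 kb was of similar size, 21.4% against 13.3%. Among those of replicate 2 it had the opposite sign, 12.5% against 15.6%, so the direction was not the same in both replicates. Among the 321 highest combined peaks the shares were 12.5% in both groups after rounding. With a distance of 10 kb the shares were 23.6% on chromosome III outside the segment and 19.7% elsewhere, a difference of 3.85 points (Fisher's exact test, two-sided p = 0.358).

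**Figure D5:**
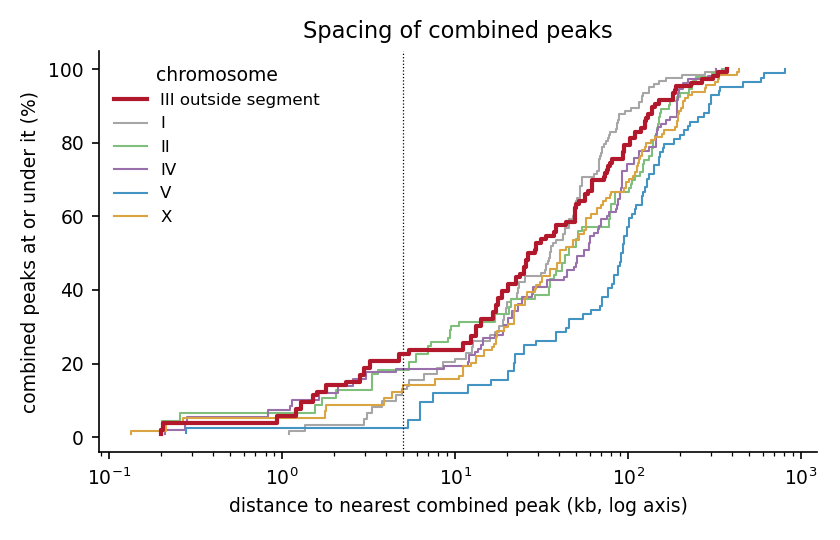
Cumulative percent of combined regions whose nearest combined neighbour on the same chromosome lies at or under a given distance (kb, log axis), for chromosome III outside the Hox segment (thick red) and chromosomes I, II, IV, V and X. The dotted line marks 5 kb, where the curves stand at 22.6% for chromosome III outside the segment, 18.5% for IV, 18.3% for II, 14.0% for X, 13.0% for I and 2.38% for V.

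The 24 close regions formed 11 runs, of which 10 were pairs and 1 was a run of 4. There were 3 runs in the left part, 4 in the centre and 4 in the right part. The run of 4 lay from 1921100 to 1926850, with 3 of its regions at the top score and found in both replicates. With 1 further region it filled the one window of 40 kb that held 4 or more of the regions, from 1921100 to 1950647. Those 5 regions, spread over 29.5 kb, had combined numbers from 144 to 600. The greatest number in such a window elsewhere was 8 on chromosome IV, 5 on X, 4 on I and on II, and 3 on V.

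The closest 2 pairs were overlapping intervals that met the same replicate peaks. The regions from 5031221 to 5031965, 205 bp apart between midpoints, shared peak 436 of replicate 1 and peak 596 of replicate 2. Those from 10989329 to 10990068, 200 bp apart, shared peak 67 of replicate 1 and peak 31 of replicate 2, and the stronger of them is combined peak 32. With overlapping intervals counted once, 20 of 104 regions were close, against 54 of 512 elsewhere, a difference of 8.68 points (Fisher's exact test, two-sided adjusted p = 0.0586). In 2 of the 11 runs all members were at the top score, in 6 some were and in 3 none was. Among close regions 12 of 24 were at the top score (50.0%), as were 38 of the 82 others (46.3%).

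At the edges of the removed segment the nearest regions on either side were as follows. On the left, the last region kept was combined peak 420, from 7463193 to 7463732 (peak 1225 of replicate 1 and 558 of replicate 2), and the first one left out was combined peak 258, from 7544035 to 7544574 (peaks 164 and 812). On the right, the first region kept was combined peak 166, from 7854356 to 7854895 (peaks 264 and 308), and the last one left out was combined peak 26, from 7814232 to 7816946 (peaks 13 and 18). Combined peak 166 was at the top score of the combined list and combined peak 420 was not.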

How the data were processed

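Embryos of strain OP27 gave 2 ChIP and 2 input samples; input was not analysed here. Per the file headers and their source field, the authors called peaks with SPP, passed them through IDR (irreproducible discovery rate) and gave them in WS220 coordinates. For the aligner, versions, thresholds and the making of the combined list nothing is given in the sources used here. The authors deposited positions, a score and a number for 644 combined peaks and for 30000 peaks of each replicate. The deposited score has no named unit and a top value shared by many peaks, so it served only as a rank within a list, and equal scores were ordered by peak number.

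Computations used scipy 1.17.1, pandas 2.3.3, numpy 2.4.6 and matplotlib 3.10.9 under Python 3.11.15. The midpoint placed a peak, and sharing meant an overlap of 1 bp or more. Chromosome length was the highest end of any replicate peak. Shares were compared by Fisher's exact test and densities by the exact conditional binomial test, two-sided, with Benjamini-Hochberg adjustment over 6 tests, of which 0 passed 0.05 and 2 did before adjustment. Shares carry exact (Clopper-Pearson) and densities exact Poisson intervals at 95%, for counting error only. The density, central-share and close-region comparisons, and the search for overlaps, were run on simulated lists of randomly placed peaks. The tests of replicate sharing, top score and support by both replicates were not. Regions named are the 10 lowest combined numbers, the 3 most unequal between replicates in each direction, those without a partner, windows of 40 kb with 4 or more, and those at the segment's edges. Other positions were picked with their values in view. The regions and tests were chosen with earlier results of these data known. No WS220 genome or annotation was used here, so no sequence is shown. Alternatives were list length, overlap, distance, the 321 highest combined peaks, left-out replicates, merged peaks, and the segment or X included. For the central share, the same relative stretch was also removed from the other autosomes.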

Additional observations from a re-analysis of the deposited data

How the results depend on the processing

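Of 29 alternative settings (28 planned and 1 added after the data were seen), 23 kept the direction and the side of the threshold, 2 moved a result past it, 4 turned a direction and 0 lost a call, since none was made to begin with. The density ratio of 1.31 ran from 1.28 to 1.61 with 1 replicate left out, passing with replicate 1 alone (adjusted p = 2.78e-05, exact), and was 1.44 with the segment included, which also passed. The difference in replicate 1 sharing of -2.66 points was 1.32 points among the 5000 highest peaks and 5.36 points as a share of replicate 2 peaks. The difference in close regions of 9.04 points was -0.0490 points among the 321 highest combined peaks, and ran from -3.12 points without replicate 1 to 8.11 points without replicate 2. It was 6.68 points at 2 kb and 3.85 points at 10 kb. The difference in support by both replicates of 5.66 points was 0.531 points with the 1000 highest peaks of each. The cause of these changes was not tested. The difference in the central share stayed below 0 in each of its settings, from -9.93 to -0.379 points. With 106 regions a share such as 43.4% has an interval of 33.8 to 53.4%, so differences of a few points were not detectable. No paired analysis was possible because, although the replicate numbers are shared by ChIP and input samples, input had no peak list here. No comparison between those groups was made, and the tests compare chromosomes and not samples.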
